A study of Rattus norvegicus with 6 samples.

Results

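The genes described here encode the machinery that builds peroxisomes and a set of peroxisomal enzymes and membrane proteins, measured in rat liver. They were chosen by name: 34 genes were listed, and every probe set that the platform annotation pairs with exactly 1 of these symbols was taken. In all, 31 of the 34 genes had such a probe set, out of 14217 genes with 1 symbol on the array. They were covered by 39 probe sets, and 28 of the 31 genes lay above the limit on dim signals and were tested, among 10573 tested genes. The beta-oxidation thiolase Acaa1a shares its probe set with Acaa1b in the annotation, and the amino acid oxidases Ddo and Pipox were not paired with a probe set, so these 3 are not analysed here. The plasmalogen enzymes Agps and Far1 and the transporter Abcd2 were measured but lay below the limit.

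Peroxisomes are small organelles with a single membrane that import their enzymes fully folded from the cytosol. The Pex proteins, or peroxins, place membrane proteins, carry matrix enzymes across the membrane and divide the organelle. In liver, peroxisomes shorten very long and branched fatty acids, form bile acid side chains and ether lipids, and oxidise urate and glycolate with release of hydrogen peroxide. In rats and mice, ligands of the nuclear receptor PPARalpha, among them fatty acids and fibrate drugs, are known to increase peroxisome number and to induce several of these enzymes, with Ehhadh and Pex11a among the known targets.

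The study hybridised liver RNA of 6 hypercholesterolemic rat samples to 1-colour Affymetrix arrays, in 2 groups of 3. Rats of the probiotic group ate a fat-rich diet throughout and, after 30 d on it, were given Lactobacillus casei Zhang in 1 ml of saline by daily gavage for another 30 d. Rats of the high-fat group, the controls, had the same diet and the same volume of saline without the bacterium. No group on ordinary chow is included, so both groups share the diet, and the labels used here state no strain, sex or age. They also do not say that each sample is a separate rat, so p-values measure the spread between these samples only.

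Signals are given as log2(intensity + 16) after quantile normalization, and differences are probiotic minus high-fat on that scale. Of the 9 measured hepatocyte markers of a list of 10, all were bright, with log2 signals between 15.32 and 16.29 against a limit of 6.30 for testing, and their differences lay between -0.15 and 0.12. On the first principal component (35.5% of the variance) probiotic sample 2 had the lowest score, -51.6, and high-fat sample 2 the highest, 75.5. The 3'-minus-5' signal of beta-actin on the log2 scale, called the beta-actin gap here, which widens as RNA breaks down, was 2.51 ± 0.50 in probiotic samples, against 1.80 ± 0.28 in high-fat samples (SD with n = 3 each; exact two-sided permutation p = 0.1, the smallest that this design allows). The beta-actin gap was widest in probiotic sample 2 (3.07) and narrowest in high-fat sample 2 (1.48), without overlap between the groups. The same measure for GAPDH was 1.17 ± 0.46 in probiotic samples, against 0.59 ± 0.14 in high-fat samples (exact two-sided permutation p = 0.2). It too was highest in probiotic sample 2 (1.58) and lowest in high-fat sample 2 (0.50). Kupffer cell markers had lower means in 8 of the 8 measured genes of 10 (1 at an unadjusted p under 0.05), with summed intensities of 11025 to 13961 in the probiotic group and 13355 to 18718 in the high-fat group. Erythroid markers, with 4 of 6 measured, summed to 29667 to 51747 in the probiotic group and 19430 to 25816 in the high-fat group, without overlap. This sum mostly reflects Hbb, with mean log2 signals of 15.18 and 14.46, against 10.03 and 8.97 for the next brightest, Alas2. Of the 4 genes, 3 had higher means and 1, Ahsp, a lower one (-0.47). At an unadjusted p under 0.05, 2 were higher and 0 lower (background 2.75% and 3.05% of genes). Summed intensities overlapped between the groups for the markers of endothelial (6 of 8 measured), stellate (8 of 8) and bile duct cells (4 of 6), and no marker of any list was at 0. These values accompany every difference described here, and their part in the results was not tested except where the beta-actin gap is named as a covariate. In whole-liver RNA, fewer cells of a type and less RNA per cell cannot be told apart.

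The treatment contrast was used to ask whether genes that build the peroxisome differed in the same way as the beta-oxidation and oxidase genes it houses. Among the 13 Pex genes, 4 had higher and 9 lower means in the probiotic group, with a median log2 difference of -0.059, which was 0.094 with the beta-actin gap as a covariate and 0.057 without both sample 2 arrays. Among the 8 measured beta-oxidation and oxidase genes of 11, 6 had higher and 2 lower means, with a median of 0.20. Over all 10573 tested genes 51.4% had higher means and the median was 0.011. No member passed limma's test at an adjusted p of 0.05 (0 of 28, adjusted p from 0.726 to 0.986), where the background was 0% of genes and 0.0215% of probe sets. Standard errors ran from 0.13 to 0.55, and a miss of the threshold at this precision does not show that a gene was level.

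At an unadjusted p under 0.05, 5 of the 28 members were higher and 0 lower, against a background of 2.75% of genes higher and 3.05% lower. These were the peroxisome division factor Pex11a, the beta-oxidation enzyme Ehhadh, the carnitine transferase Crot and the alpha-oxidation enzymes Phyh and Hacl1. The count was 5 without both sample 2 arrays, 3 with median centring in place of quantile normalization and 3 with no normalization. It was 2 when the variance was fitted without an intensity trend and 2 with the mean over all probe sets of each gene. With the beta-actin gap as a covariate it was 0. With 1 sample left out it was 3 to 7, with 3 without high-fat sample 1 or high-fat sample 3. The lower count was 2 without high-fat sample 1 and 1 without probiotic sample 1, without high-fat sample 2, with the replicate number as a block or with no limit on dim signals. In 5 members every probiotic sample lay above every high-fat sample (17.9%, against a background of 5.93%), and in 0 members did every probiotic sample lie below (background 6.42%). They were Pex5, Pex11a, Ehhadh, Crot and Phyh. With median centring in place of quantile normalization the higher count was 2 (background 3.27%), and with no normalization 3 (background 5.51%). With the mean over probe sets it was 1 (background 5.15%). The absence of members lying below rested on single samples: without probiotic sample 1 there were 6 (background 13.05%), without high-fat sample 1 5 (background 12.8%) and without high-fat sample 2 2 (background 10.4%). Without high-fat sample 2 the count above was 9 (background 9.56%).

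**Figure D1:**
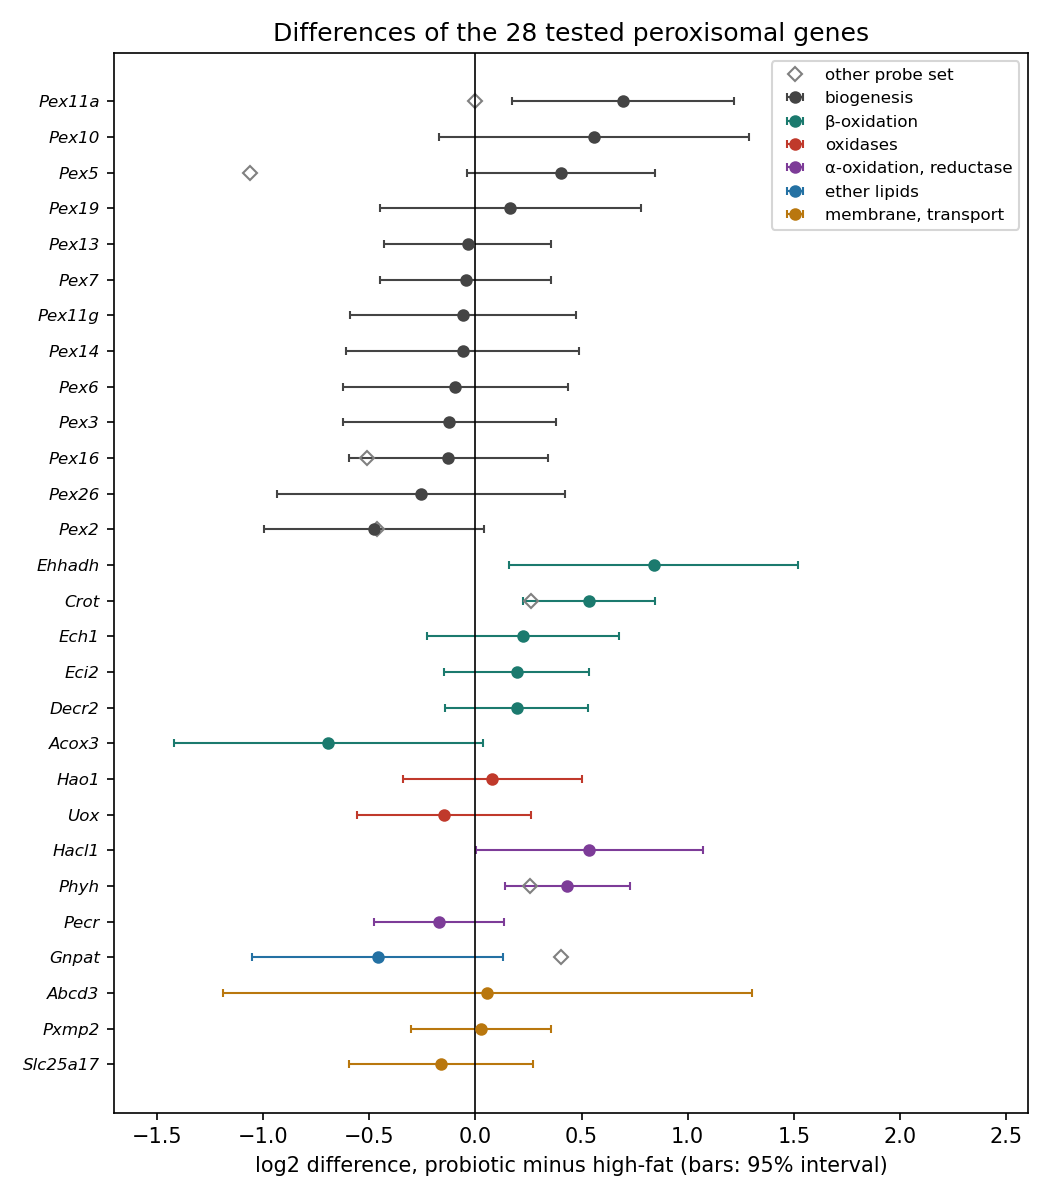
Log2 differences, probiotic minus high-fat, of the 28 tested peroxisomal genes, with 95% intervals from limma (3 samples per group), coloured by role; open diamonds are further probe sets of the same gene. Pex11a, Ehhadh, Crot, Phyh and Hacl1 have intervals above 0, and the further probe set of Pex5 lies at -1.06, on the other side of 0 from its brightest one.

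The groups of genes did not separate the samples cleanly. The level of a group in a sample, taken as the median deviation of its genes from their own means, was 0.015, 0.21 and 0.067 for beta-oxidation and oxidase genes in probiotic samples 1, 2 and 3, against -0.17, 0.085 and -0.083 in high-fat samples 1, 2 and 3. For the Pex genes it was 0.25, -0.19 and -0.056 in the probiotic samples, against -0.091, -0.0010 and 0.043 in the high-fat samples. The levels overlapped between the treatment groups for both sets of genes. The difference between the enzyme level and the Pex level was -0.23, 0.41 and 0.12 in the probiotic samples and -0.082, 0.086 and -0.13 in the high-fat samples. It averaged 0.10 ± 0.32 in the probiotic group, against -0.041 ± 0.11 in the high-fat group (n = 3 each, with SD). The means differed by 0.14, less than the spread within the probiotic group. Without probiotic sample 2 they differed by 0.0095, without both sample 2 arrays by -0.024, and with the beta-actin gap as a covariate by -0.13.

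**Figure D2:**
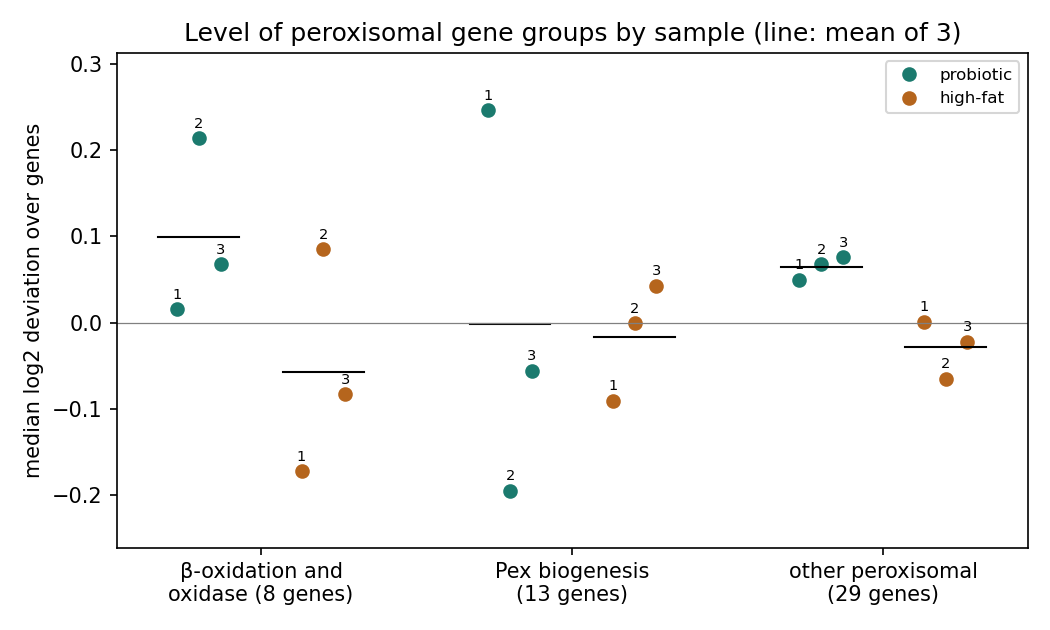
Median log2 deviation of 3 groups of genes in each of the 6 liver samples, numbered by replicate, with a line at the mean of each treatment group. Probiotic sample 2 is highest for beta-oxidation and oxidase genes (0.21) and lowest for Pex genes (-0.19), and probiotic sample 1 is highest for Pex genes (0.25).

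The contrast between Pex genes and enzymes was widest in probiotic sample 2. Of the 6 measured beta-oxidation genes, 5 had their highest value in that sample, the exception being Acox3, which had its lowest there. Of the 13 Pex genes, 5 had their lowest value in probiotic sample 2 and 1 its highest. Over all tested genes, 20.8% were highest and 21.7% lowest in this array. Without it, 7 of 13 Pex genes had higher means in the probiotic group in place of 4. Without both sample 2 arrays 8 Pex genes did. Of 8 beta-oxidation and oxidase genes, 6 were higher with any single sample left out, but not always the same 6. Without high-fat sample 2, Uox turned to 0.033 and Hao1 to -0.11.

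**Figure D3:**
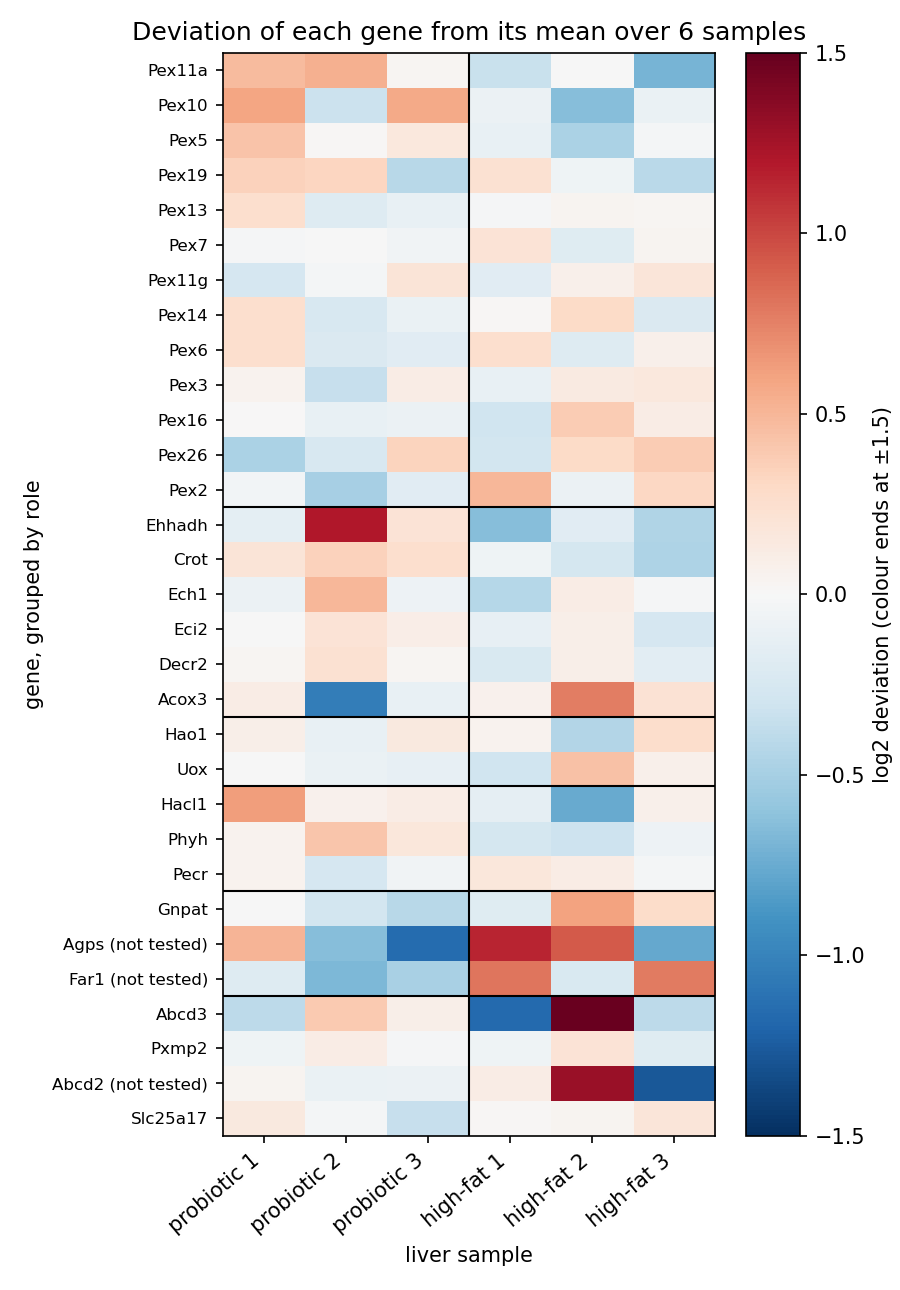
Log2 deviation of each of the 31 measured genes from its own mean over the 6 samples, red for above and blue for below, grouped by role from biogenesis at the top to membrane and transport proteins at the bottom. Ehhadh reaches 15.46 and Acox3 is at 9.01 in probiotic sample 2, and Abcd3 reaches 13.69 in high-fat sample 2.

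The peroxins that promote division of the organelle were measured by Pex11a and Pex11g. Pex11a had log2 signals of 11.51, 11.56 and 11.07 in probiotic samples 1, 2 and 3, against 10.69, 11.03 and 10.33 in high-fat samples 1, 2 and 3. All 3 probiotic values lay above all 3 high-fat values, though probiotic sample 3 and high-fat sample 2 nearly touched. The difference was 0.69 (SE 0.23, 1.62-fold, adjusted p = 0.726 with limma). A dimmer Pex11a probe set gave a difference of -0.0026, with an interval of -1.06 to 1.06. Pex11g overlapped between the groups, with a difference of -0.059 (SE 0.24).

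Import of matrix enzymes starts with the receptors Pex5 and Pex7, which bind the targeting signals at the end and near the start of their cargo. Pex5 had log2 signals of 11.69, 11.28 and 11.43 in the probiotic samples, against 11.16, 10.79 and 11.24 in the high-fat samples. The groups did not overlap, and the difference was 0.40 (SE 0.20, adjusted p = 0.732 with limma). A dimmer Pex5 probe set pointed the other way, with 7.80, 7.10 and 7.53 in the probiotic samples against 9.19, 8.66 and 7.76 in the high-fat samples. Its difference was -1.06 (SE 0.38, unadjusted p = 0.0213, adjusted p = 0.726 with limma). The direction for Pex5 thus differs between its probe sets, and their mean gave -0.33. The brightest gave 0.27 without high-fat sample 2. Pex7 overlapped between the groups, at 10.79 ± 0.029 in probiotic samples, against 10.84 ± 0.19 in high-fat samples (n = 3 each, with SD).

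Receptors dock at Pex13 and Pex14 and are recycled by the ring-finger ligases Pex2 and Pex10 and by the ATPase Pex6, which Pex26 anchors to the membrane. Pex2 had log2 signals of 9.91, 9.45 and 9.78 in the probiotic samples, against 10.44, 9.86 and 10.26 in the high-fat samples. Probiotic sample 1 just overlapped with high-fat sample 2, and the difference was -0.48 (SE 0.23, adjusted p = 0.732 with limma), with -0.46 from a further probe set. In that further Pex2 probe set every probiotic sample lay below every high-fat sample, at 9.44, 9.01 and 9.57 in the probiotic samples against 10.01, 9.64 and 9.76 in the high-fat samples. Pex10, its partner in the ligase complex, had the opposite sign, with 8.73, 7.82 and 8.72 in the probiotic samples against 8.06, 7.50 and 8.04 in the high-fat samples. Its difference of 0.56 (SE 0.33, adjusted p = 0.74) was 0.91 with the beta-actin gap as a covariate and came with an overlap, since probiotic sample 2 lay below high-fat samples 1 and 3. Pex13, Pex14, Pex6 and Pex26 had differences of -0.036, -0.060, -0.094 and -0.26, each smaller than its standard error.

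Membrane proteins of the peroxisome are inserted by Pex3, Pex16 and the chaperone Pex19. Their differences were -0.12, -0.13 and 0.16, with intervals of -0.62 to 0.38, -0.59 to 0.34 and -0.45 to 0.78. These intervals are wide enough that the data do not show the insertion factors to be level. A further Pex16 probe set gave -0.51 (SE 0.35, adjusted p = 0.76 with limma).

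Among the enzymes of beta-oxidation, Crot had the smallest p of all members. It transfers medium-chain products of peroxisomal oxidation to carnitine for export. Its log2 signals were 14.65, 14.80 and 14.71 in the probiotic samples, against 14.39, 14.19 and 13.99 in the high-fat samples. The groups were clearly apart, with a difference of 0.53 (SE 0.14, 1.45-fold, unadjusted p = 0.00357, adjusted p = 0.726 with limma). A further bright probe set overlapped between groups, with 13.71, 12.76 and 13.32 in the probiotic samples against 12.91, 13.45 and 12.65 in the high-fat samples, a difference of 0.26.

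Ehhadh, the bifunctional enzyme that hydrates and dehydrogenates the acyl chain, had a difference that rested in part on 1 sample. Its log2 signals were 14.10, 15.46 and 14.45 in the probiotic samples, against 13.61, 14.08 and 13.80 in the high-fat samples. The groups did not overlap after quantile normalization. Probiotic sample 2 lay a full unit above the other 2 samples of its group, and probiotic sample 1 only just above high-fat sample 2. In the deposited intensities probiotic sample 1 (18100) lay below high-fat sample 2 (18734). The difference was 0.84 (SE 0.30, 1.79-fold, adjusted p = 0.726 with limma), the largest of the 28 tested members with all samples in. It was 0.45 without probiotic sample 2 and 0.21 with the beta-actin gap as a covariate. Without probiotic sample 2 it was less than for Pex10 (0.85), Hacl1 (0.64), Pex11a (0.60), Crot (0.499) and Pex5 (0.497).

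Acox3, which in rats oxidises branched acyl-CoAs, stood against the other beta-oxidation genes. It had 10.16, 9.01 and 9.93 in the probiotic samples, against 10.11, 10.81 and 10.26 in the high-fat samples. The lowest value was again probiotic sample 2 and the highest high-fat sample 2, and probiotic sample 1 lay above high-fat sample 1. The difference of -0.69 (SE 0.32, adjusted p = 0.73 with limma) was -0.34 without probiotic sample 2 and 0.18 with the beta-actin gap as a covariate. The auxiliary enzymes for unsaturated chains, the isomerases Ech1 and Eci2 and the reductase Decr2, had small differences of 0.22, 0.20 and 0.19 with overlapping groups. Their standard errors were 0.20, 0.15 and 0.15. Ech1 had 0.030 without probiotic sample 2, and Eci2 had 0.11 without high-fat sample 3.

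**Figure D4:**
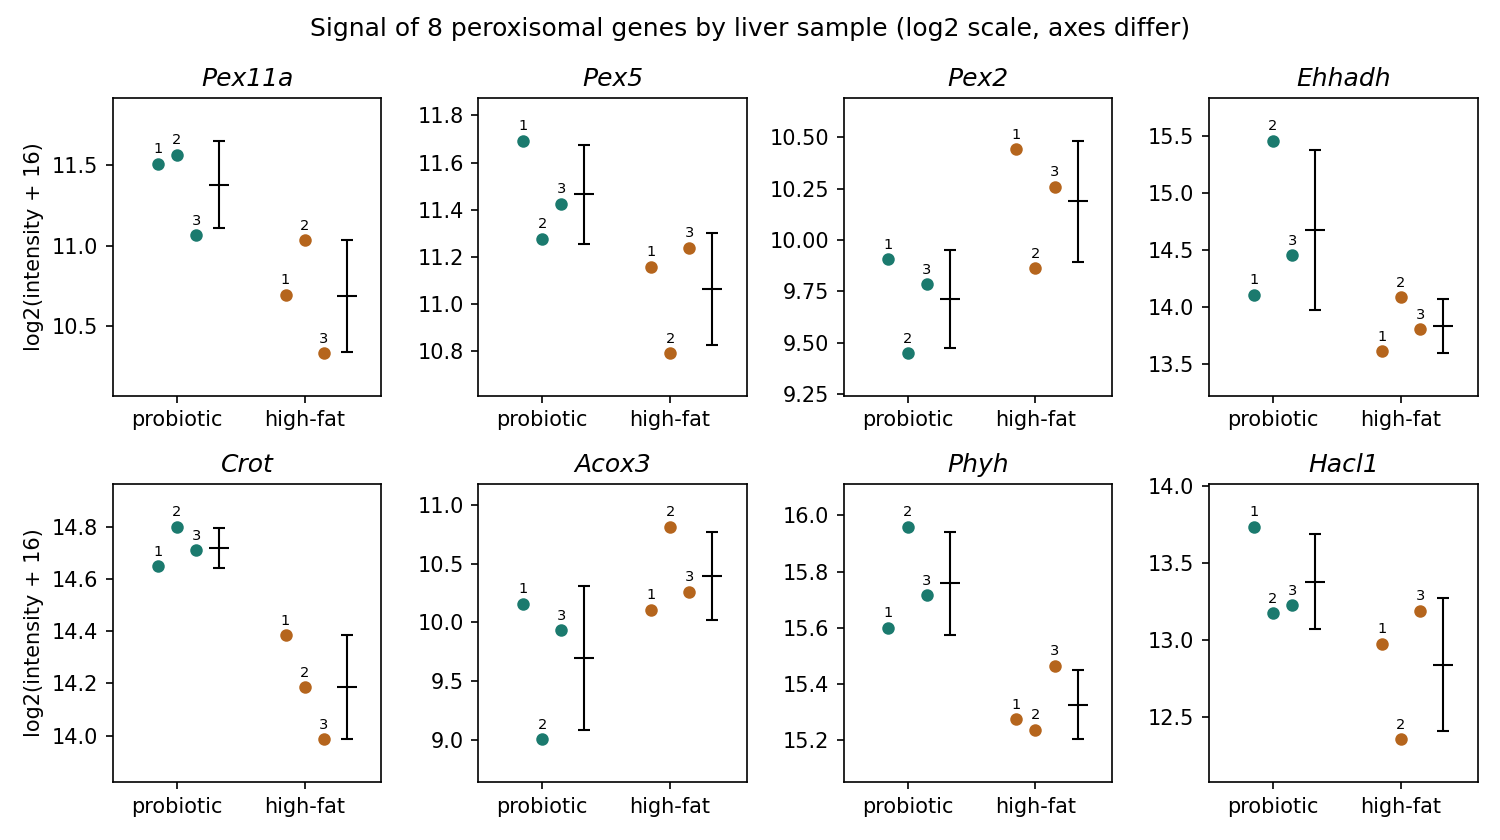
Log2 signal after quantile normalization of 8 peroxisomal genes in each liver sample, numbered by replicate, with group mean and SD beside the points. Crot and Phyh have probiotic samples (14.65 to 14.80 and 15.60 to 15.96) above high-fat samples (13.99 to 14.39 and 15.24 to 15.47), whereas Pex2, Acox3 and Hacl1 overlap.

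The oxidases that give peroxisomes their name as sources of hydrogen peroxide overlapped between the groups. Uox, which oxidises urate to a precursor of allantoin in rats, had 14.31, 14.21 and 14.19 in the probiotic samples, against 14.01, 14.75 and 14.38 in the high-fat samples. All 3 probiotic values fell inside the range of the high-fat group, and the difference was -0.15 (interval -0.55 to 0.26). Hao1, which oxidises glycolate to glyoxylate, had 14.05, 13.85 and 14.11 in the probiotic samples, against 14.02, 13.53 and 14.23 in the high-fat samples, a difference of 0.079 (interval -0.34 to 0.50). Neither interval is narrow enough to show the gene to be level. The sign of both differences turned without high-fat sample 2 and with the beta-actin gap as a covariate.

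Alpha-oxidation removes 1 carbon from chains whose methyl branch blocks beta-oxidation. Phyh, which hydroxylates phytanoyl-CoA, had 15.60, 15.96 and 15.72 in the probiotic samples, against 15.27, 15.24 and 15.47 in the high-fat samples. The groups did not overlap after quantile normalization, with a difference of 0.43 (SE 0.13, 1.35-fold, unadjusted p = 0.00862, adjusted p = 0.726 with limma). A further probe set with overlapping groups gave 0.26. In the deposited intensities of the brightest probe set, probiotic sample 1 (47175) lay below high-fat sample 2 (47657). With the beta-actin gap as a covariate the Phyh difference was 0.19. Hacl1, the lyase that acts on the next intermediate, had 13.73, 13.18 and 13.23 in the probiotic samples, against 12.98, 12.36 and 13.19 in the high-fat samples. High-fat sample 3 lay within the probiotic range, and the difference of 0.54 (SE 0.24, adjusted p = 0.728) was 0.29 without high-fat sample 2. Pecr, a reductase of unsaturated acyl-CoAs, had a difference of -0.17 (SE 0.14, adjusted p = 0.785).

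Ether lipid synthesis begins in the peroxisome with Gnpat and Agps, fed with fatty alcohols by Far1. Gnpat had 8.94, 8.68 and 8.54 in the probiotic samples, against 8.77, 9.55 and 9.22 in the high-fat samples, a difference of -0.46 (SE 0.26, adjusted p = 0.738 with limma). A dimmer probe set had the opposite sign, at 0.40 (SE 0.34), so no direction is given for this gene. Agps and Far1 were too dim to be tested. Agps ranged from 4.45 to 6.12 in the probiotic group, against 4.84 to 6.75 in the high-fat group, and Far1 reached 5.04 in the probiotic group, against 6.03 in the high-fat group. The groups overlapped for both genes.

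Membrane proteins that exchange substrates with the cytosol showed no common direction. Abcd3, a half-transporter for acyl-CoAs, had 11.81, 12.60 and 12.30 in the probiotic samples, against 11.04, 13.69 and 11.81 in the high-fat samples. Its high-fat SD of 1.36 was the widest of any tested member, and its difference of 0.056 had an interval of -1.19 to 1.30. The untested Abcd2, a related half-transporter, also had its highest value in high-fat sample 2, at 7.28 against 4.72 to 6.10 in the other high-fat samples and 5.89 to 6.03 in the probiotic samples. Slc25a17, a carrier of cofactors, had 10.93, 10.76 and 10.44 in the probiotic samples, against 10.81, 10.84 and 10.98 in the high-fat samples. Pxmp2, a channel protein, had 13.61, 13.79 and 13.66 in the probiotic samples, against 13.61, 13.88 and 13.50 in the high-fat samples. Both overlapped between the groups, with differences of -0.16 (SE 0.19) and 0.027 (SE 0.15).

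Other peroxisomal genes were set beside the members. Of 38 such genes 30 were measured and 29 tested: 19 had higher and 10 lower means, with a median difference of 0.093. At an unadjusted p under 0.05, 4 were higher and 2 lower, against a background of 2.75% of genes higher and 3.05% lower. In 4 genes every probiotic sample lay above every high-fat sample (background 5.93%), and in 3 every probiotic sample lay below (background 6.42%). Limma's adjusted test was passed by 0. Ephx2, a hydrolase of fatty acid epoxides found in cytosol and peroxisomes, came closest, at 9.36, 9.17 and 8.80 in the probiotic samples against 10.74, 11.25 and 10.99 in the high-fat samples (difference -1.88, SE 0.23, adjusted p = 0.0529). It passed under 5 of 16 alternatives, with adjusted p from 0.0308 to 0.999 over all of them. Lonp2, the peroxisomal protease and chaperone, had 14.07, 13.97 and 14.25 in the probiotic samples against 13.88, 13.48 and 13.46 in the high-fat samples, without overlap (difference 0.49, SE 0.16, adjusted p = 0.726). The bile acid side-chain enzymes Acox2 and Amacr had differences of 0.56 (SE 0.21) and -0.41 (SE 0.17), both at an adjusted p of 0.726.

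Catalase, Cat, which breaks down hydrogen peroxide, had 15.37, 15.35 and 15.34 in the probiotic samples, against 15.24, 15.04 and 15.08 in the high-fat samples, a difference of 0.24 (SE 0.11, adjusted p = 0.73 with limma) with no overlap. Hsd17b4 and Scp2, which carry straight and branched chains through later steps, had differences of 0.035 and 0.092. Ppara itself was dim and overlapped between groups, with 7.13, 6.42 and 6.12 in the probiotic samples against 6.19, 6.83 and 6.88 in the high-fat samples. Its partner Rxra had 8.64, 7.80 and 7.97 in the probiotic samples against 9.06, 9.17 and 8.98 in the high-fat samples. Every probiotic sample lay below (difference -0.94, SE 0.27, unadjusted p = 0.00712, adjusted p = 0.726 with limma). Of the 8 tested genes on the list of Ppara and its partners, 4 had higher and 4 lower means. At an unadjusted p under 0.05, 0 of them were higher and 1, Rxra, lower (background 2.75% and 3.05%). Of 18 tested genes on a list of PPARalpha targets outside the peroxisome, 14 had higher and 4 lower means in the probiotic group, with a median of 0.26. In limma's adjusted test 0 passed, and 2 were higher and 0 lower at an unadjusted p under 0.05 (background 2.75% and 3.05%). The level of this list was 0.045, 0.35 and -0.059 in probiotic samples 1, 2 and 3, against -0.15, 0.094 and -0.18 in high-fat samples 1, 2 and 3. The groups overlapped, and probiotic sample 2 was highest.

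Promoter sequences were read for the members to see what they share besides the organelle. Of the 34 listed genes 31 had an entry in the RefSeq promoter table of build GRCr8, the exceptions being Pex2, Pex6 and Ech1, and the 250 bases before each start were searched on both strands. The GC box GGGCGG occurred in 22 of 31 members (71%), against 38.9% of the 21851 promoters of protein-coding genes of the same length. It was found in 9 of 11 Pex promoters and 5 of 6 beta-oxidation promoters, but in 0 of 4 oxidase promoters (Uox, Hao1, Ddo and Pipox). CCAAT occurred in 15 of 31 members (48.4%, background 35%) and TATAAA in 1 (3.23%, background 12.1%). The nuclear receptor half-site AGGTCA occurred in 4 (12.9%, background 12.5%). The direct repeat DR1, in which 1 base separates a pair of AGGNCA copies, the form that PPARalpha and its partner bind, was in 0 of 31 windows (background 0.32%), which says nothing about sites outside these bases. GC content ran from 38% in Hao1 to 75.6% in Abcd3, with a median of 54.8% for Pex and 61.6% for beta-oxidation promoters. The median was 60.8% over all 31 members, against 54% over the promoters of protein-coding genes. The part of GC content in the share of GC boxes was not tested.

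Windows are shown for Ehhadh, Crot and Pex11a, 3 genes without overlap between groups after quantile normalization. Uox, an oxidase whose groups overlapped, is added so that both promoter types are shown. Capitals mark the GC box, the CCAAT box and the half-site AGGTCA on either strand, and each line runs 5′ to 3′ toward the start of the gene. They lie at chr11:92746159-92746408 (plus strand) for Ehhadh, chr4:26052874-26053123 (plus) for Crot, chr1:143096492-143096741 (minus) for Pex11a and chr2:238146880-238147129 (plus) for Uox, all upstream of the annotated start in GRCr8.
Ehhadh: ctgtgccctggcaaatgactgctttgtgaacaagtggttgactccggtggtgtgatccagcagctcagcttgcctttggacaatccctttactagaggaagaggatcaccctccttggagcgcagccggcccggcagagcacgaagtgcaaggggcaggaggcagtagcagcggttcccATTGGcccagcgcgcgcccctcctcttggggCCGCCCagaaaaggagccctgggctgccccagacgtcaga
Crot: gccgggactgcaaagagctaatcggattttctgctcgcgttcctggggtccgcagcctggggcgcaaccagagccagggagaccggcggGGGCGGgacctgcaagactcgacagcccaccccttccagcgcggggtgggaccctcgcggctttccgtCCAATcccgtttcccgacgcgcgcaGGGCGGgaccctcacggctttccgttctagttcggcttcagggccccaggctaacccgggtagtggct
Pex11a: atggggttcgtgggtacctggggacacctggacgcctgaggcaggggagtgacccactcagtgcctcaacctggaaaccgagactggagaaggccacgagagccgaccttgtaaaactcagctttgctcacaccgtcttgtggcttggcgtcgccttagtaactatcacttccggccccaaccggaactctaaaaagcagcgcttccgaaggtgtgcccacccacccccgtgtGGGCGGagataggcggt
Uox: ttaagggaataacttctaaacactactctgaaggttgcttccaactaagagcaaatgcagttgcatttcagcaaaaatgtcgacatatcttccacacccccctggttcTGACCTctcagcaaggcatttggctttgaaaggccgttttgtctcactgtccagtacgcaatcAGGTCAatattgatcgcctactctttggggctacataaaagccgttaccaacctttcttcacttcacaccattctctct

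Ehhadh has 1 GC box close to its start and 1 inverted CCAAT, Crot has 2 GC boxes on either side of a CCAAT, and Pex11a has 1 GC box. Uox has neither, and carries 2 half-sites on opposite strands, at positions -142 to -137 and -79 to -74 from the start. The match or lack of a match describes these letters only, and no binding was measured.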

How the data were processed

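Per the labels' protocols, 8 ug of liver total RNA was made into biotinylated cRNA for each Affymetrix array. For every array the authors deposited 1 linear intensity per probe set, and the software behind it is not given in the sources used here. Values had a mean of 500.3 on every array after trimming 2% at each end. Of 31099 probe sets, 57 are controls, and 20826 of the others had 1 symbol, 436 several and 9780 none in the platform annotation. All 39 member probe sets matched RefSeq symbols.

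The values were transformed as log2(intensity + 16) and quantile normalized. Probe sets at or above the 40th percentile of mean signal (18625) were tested with limma 3.58.1 in R 4.3.3 (lmFit, eBayes with trend, Benjamini-Hochberg over all of them), checked on simulated data. The number of arrays limits the precision. Genes with several probe sets are represented by the brightest. Lists are described by counts and medians with no test. The text names all 34 members and gives sample values for 2 to 4 per role (smallest p, then brightest). Of other lists it names Acox2, Hsd17b4, Scp2, Cat, Ppara, Rxra, the erythroid markers Hbb, Alas2 and Ahsp, and up to 4 other peroxisomal genes of smallest p. The members, lists and alternatives were chosen with earlier results of these data known. Promoters came from RefSeq (GRCr8), and figures from matplotlib 3.10.9.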

Additional observations from a re-analysis of the deposited data

How the results depend on the processing

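No member passed the adjusted test under any of the 16 alternatives, which covered normalization, filter, pseudocount, variance model, replicate number, covariate, probe sets and samples. The probe sets called over the whole array numbered 4, and 3 to 12 with 1 sample left out (12 without probiotic sample 1, 9 without high-fat sample 1).

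The median difference of Pex genes, -0.059, ranged from -0.082 to 0.020 with 1 sample left out and was 0.094 with the beta-actin gap as a covariate and 0.057 without both sample 2 arrays. That of beta-oxidation and oxidase genes, 0.20, ranged from 0.13 to 0.28 with 1 sample left out. The median of all members, -0.0049, was 0.12 with the covariate and -0.031 to 0.051 with 1 sample left out. The gap between enzymes and Pex genes was -0.13 with the covariate, -0.024 without both sample 2 arrays and 0.0095 to 0.34 with 1 sample left out. Higher Pex genes numbered 9 with the covariate, 8 without both sample 2 arrays and 5 to 7 with 1 sample left out. Members higher without overlap numbered 2 with median centring (background 3.27%), 3 with no normalization (background 5.51%), 11 without both sample 2 arrays (background 16.4%), 1 with the mean over probe sets (background 5.15%) and 5 to 9 with 1 sample left out (9 without high-fat sample 2). Those lower without overlap numbered 2 without both sample 2 arrays (background 15.96%), 1 with the mean over probe sets (background 7.35%) and 0 to 6 with 1 sample left out (6 without probiotic sample 1). The median of other peroxisomal genes, 0.093, was 0.050 with no normalization, 0.033 with the covariate, 0.065 without both sample 2 arrays and 0.042 to 0.15 with 1 sample left out.

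Signs turned for some genes, none past the test in either setting, Acox3 and Pex5 among them with differences far from 0. With the covariate the values were 0.15 for Pex3, 0.013 for Pex6, 0.20 for Pex13, 0.32 for Pex14, 0.092 for Pex16, 0.18 for Acox3, -0.0060 for Ech1, 0.086 for Uox, -0.0047 for Hao1, 0.0096 for Pecr, 0.63 for the untested Abcd2 and 0.31 for Ppara. Without both sample 2 arrays they were 0.058 for Pex3, 0.061 for Pex13, 0.17 for Pex14, 0.057 for Pex16, 0.045 for Uox, -0.038 for Hao1, 0.55 for Abcd2 and 0.097 for Ppara. Median centring gave 0.0095 for Pex7, 0.045 for Pex13 and -0.030 for Scp2. No normalization gave -0.019 for Pxmp2, -0.021 for Hsd17b4 and -0.078 for Scp2, and the mean over probe sets -0.33 for Pex5.

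With 1 sample left out, ranges that crossed 0 were -0.21 to 0.020 for Pex3, -0.25 to 0.011 for Pex6, -0.15 to 0.043 for Pex7, -0.17 to 0.053 for Pex11g, -0.17 to 0.053 for Pex13, -0.20 to 0.068 for Pex14, -0.31 to 0.032 for Pex16, -0.34 to 0.033 for Uox, -0.11 to 0.23 for Hao1, -0.52 to 0.81 for Abcd3, -0.74 to 0.53 for the untested Abcd2, -0.058 to 0.13 for Pxmp2, -0.023 to 0.091 for Hsd17b4 and -0.36 to 0.14 for Ppara. The causes were not tested.

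With the replicate number as a block, all differences were the same, 0 members passed (lowest adjusted p = 0.572 with limma) and 4 probe sets were called. Deviations of same-numbered samples correlated at 0.14, 0.027 and 0.077, and those of differently numbered samples at -0.14 to 0.067. With so few samples these values do not settle whether the numbers pair the samples.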
